A study of Caenorhabditis elegans with 8 samples.

Results

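The str, srd and srj genes of *C. elegans* are 3 families of chemoreceptor genes, and their transcripts were followed in *dyf-1(mn335)* mutants and in wild-type worms. A probe set, the group of array probes that are summarised together, was taken as a member when the platform annotation gave it exactly 1 symbol and that symbol was str, srd or srj with a number. *str-2* was left out. The rule gave 286 of the 29317 probe sets on the array, 187 for str, 60 for srd and 39 for srj genes. They stand for 285 genes, since *str-16* has 2 probe sets. All 286 matched a RefSeq gene by Entrez ID, 281 as protein-coding genes and 5 as pseudogenes.

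Chemoreceptors of these families are predicted seven-transmembrane proteins that couple to G proteins. The known ones sit in the ciliated endings of sensory neurons, where they bind odorants, pheromones or other chemicals, and single members are often transcribed in only 1 or a few pairs of neurons. From the receptor the signal passes through G protein subunits to cGMP-gated channels in some neurons and to TRPV channels in others. DYF-1 is needed to build the outer segment of these cilia, and the study found that *dyf-1(mn335)* worms took up less of the dye DiI.

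Total RNA came from whole hermaphrodite worms on day 1 of adulthood, 4 samples of *dyf-1(mn335)* and 4 of wild-type N2. Both strains were synchronised by bleaching and grown at the same temperature. The study's legends call the 4 samples of a strain biologically independent, and no source used here gives the nature of the *mn335* lesion. Values are log2 expression values from 1 array per sample, normalised together with RMA. In whole worms, fewer neurons of a type and less RNA per neuron cannot be told apart.

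The *dyf-1* probe set itself had log2 values of 6.85, 7.02, 7.30 and 7.48 in *dyf-1(mn335)* and of 6.26, 6.01, 5.61 and 6.07 in wild-type, higher in all 4 mutant arrays. Without knowledge of the lesion, this level does not check the labels. Wild-type replicate 4 was unlike the other wild-type arrays, with correlations over all probe sets of 0.976 to 0.978 with *dyf-1(mn335)* replicates 1 to 3 and of 0.958 to 0.974 with wild-type replicates 1 to 3. *dyf-1(mn335)* replicate 4 correlated at 0.978 to 0.984 with the rest of its group. Results on receptor genes that these arrays move are therefore given without them as well. A probe set was called at an adjusted p under 0.01 in limma, with Benjamini-Hochberg adjustment across the whole array, and named bright at a mean log2 value of 5 or more over the 8 arrays and dim below it. Fold changes are *dyf-1(mn335)* over wild-type, and those of dim probe sets are uncertain in size.

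Few of the receptor probe sets were called, and those called went both ways. *srd-32* and *srj-23* were higher in *dyf-1(mn335)*, whereas *srj-14*, *str-146*, *str-41*, *str-55* and *str-16* were lower. These 2 higher and 5 lower probe sets are 2.45% of the 286. Over the whole array 6.56% of probe sets were called higher and 3.46% lower, 10% in all, and 6.24% of dim probe sets were called. By family, 4 of 187 str probe sets were called, all lower, 1 of 60 srd probe sets, higher, and 1 of 39 srj probe sets in each direction. Among str probe sets none was called higher by limma. With an unadjusted limma p below 0.05, 6 of the 187 rose and 32 fell. Of all 29317 probe sets, 5574 rose and 5852 fell by that measure.

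Most of the families lay near the lower end of the scale. Only 4 probe sets were bright, those of *srj-14*, *srd-32*, *srd-27* and *srd-23*, and 190 of the 282 dim ones had a mean log2 value under 3. Closest to the limit of 5 were *srd-23* with a mean of 5.23 and *str-245* with 4.96. Of the 190 lowest probe sets none was called by limma, with 2 higher and 20 lower where the unadjusted p was under 0.05. Of all 5008 probe sets in this range, 0.519% were called, and 137 were higher and 480 lower by the unadjusted p. From 3 to 4, 1 of 72 receptor probe sets was called (1.39%, against 4.98% of all probe sets in that range), and from 4 to 5, 1 higher and 3 lower of 20, against 14.6% of all. A log2 fold change of at least 1 in size was seen in 6 of the 286 (2.10%), against 14.2% of all probe sets.

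**Figure D1:**
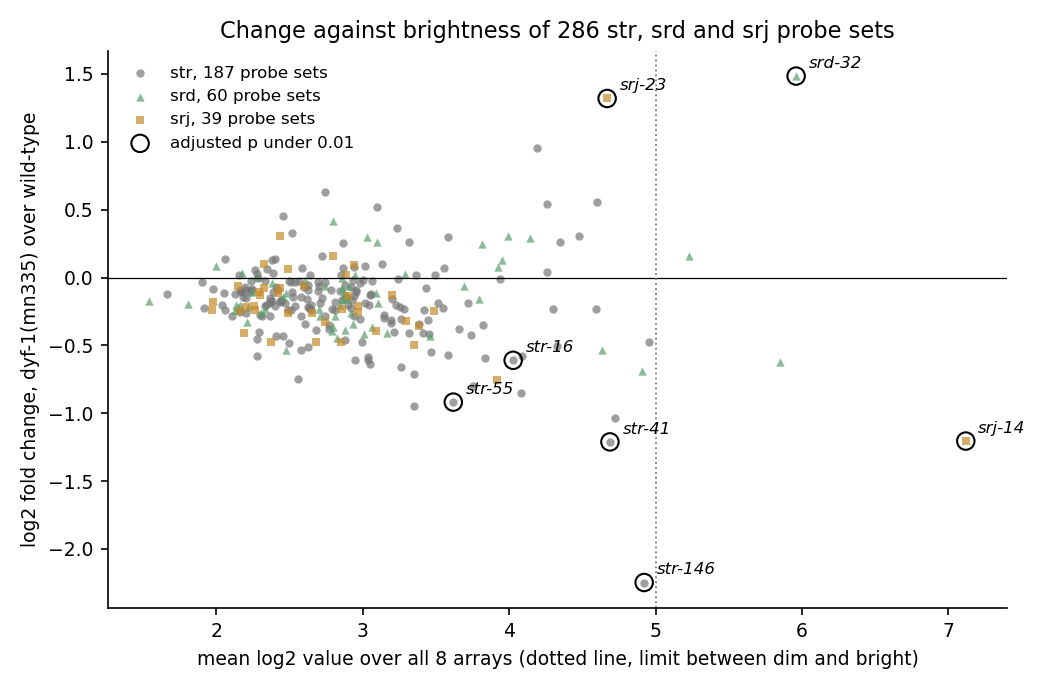
Log2 fold change of *dyf-1(mn335)* over wild-type against the mean log2 value over the 8 arrays, 1 point per probe set, with str as circles, srd as triangles and srj as squares. The 7 called probe sets are ringed, and 190 of the 286 points lie below a mean of 3, where none is ringed.

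Of the bright receptors, *srd-32* was the one that rose. It is among the genes that the study silenced by RNAi. Its log2 values were 7.04, 6.59, 6.65 and 6.53 in *dyf-1(mn335)*, against 5.27, 4.89, 4.75 and 5.96 in wild-type. All mutant arrays lay above all wild-type arrays, and wild-type replicate 4 came nearest to the mutant, 0.99 above the mean of the other wild-type arrays. The means were 6.70 ± 0.23 and 5.22 ± 0.54 (SD, n = 4 each), a 2.80-fold rise, or 1.48 on the log2 scale (standard error, SE, 0.26, adjusted p = 0.00416 from limma). An exact two-sided permutation test gave p = 0.0286, the smallest that 4 arrays against 4 allow. The call was lost when replicate 1, 2 or 3 of either strain was left out (log2 fold change 1.33 to 1.52, adjusted p = 0.0123 to 0.0167 from limma). Without wild-type replicate 4 the log2 fold change was 1.73 (adjusted p = 0.000197 from limma).

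*srj-14* fell. It had 6.35, 6.53, 6.33 and 6.86 in *dyf-1(mn335)*, against 7.73, 8.17, 7.81 and 7.18 in wild-type, with no overlap. Here too wild-type replicate 4 lay nearest to the mutant arrays and *dyf-1(mn335)* replicate 4 nearest to wild-type. The means of 6.52 ± 0.25 and 7.72 ± 0.41 (SD, n = 4 each) are 2.31-fold apart (adjusted p = 0.00518 from limma, exact permutation p = 0.0286). As for *srd-32*, leaving out replicate 1, 2 or 3 of either strain ended the call (adjusted p = 0.0164 to 0.0197 from limma), and without wild-type replicate 4 the log2 fold change was -1.39 (adjusted p = 0.000511 from limma).

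The other two bright receptors were not called. *srd-27* had 5.38, 5.14, 5.62 and 6.02 in *dyf-1(mn335)* and 6.16, 6.17, 5.95 and 6.38 in wild-type. Only the highest mutant array, replicate 4, reached into the wild-type range (adjusted p = 0.0463 from limma, exact permutation p = 0.0571). Without both replicate 4 arrays, the log2 fold change was -0.71 and the adjusted p from limma 0.0066. In the annotation *srd-27* overlaps T26E4.18, and no source used here says whether its probes lie in the shared stretch.

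*srd-23* had 5.04, 4.86, 5.20 and 6.13 in *dyf-1(mn335)* and 5.0, 5.57, 5.09 and 4.94 in wild-type. The strains overlapped, with *dyf-1(mn335)* replicate 4 above and *dyf-1(mn335)* replicate 2 below all wild-type arrays. The log2 fold change was 0.16 (SE 0.28, adjusted p = 0.699 from limma), and it turned to -0.12 without *dyf-1(mn335)* replicate 4.

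Among the dim receptors *str-146* had the largest fold change of all 286. Its log2 values were 3.64, 4.01, 3.49 and 4.06 in *dyf-1(mn335)*, against 6.26, 6.17, 6.28 and 5.48 in wild-type. The strains were more than 1 log2 unit apart at their nearest arrays, and in wild-type the probe set lay above the limit for bright probe sets in all 4 arrays. With means of 3.80 and 6.05, it was 4.75-fold lower in the mutant (log2 fold change -2.25, SE 0.22, adjusted p = 0.000337 from limma, exact permutation p = 0.0286). It was the only one of the 7 that stayed called without each of the 8 arrays in turn (adjusted p of 5.28e-05 to 0.00218 from limma).

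*str-41* had 4.07, 3.53, 4.45 and 4.28 in *dyf-1(mn335)*, against 5.42, 5.23, 5.47 and 5.06 in wild-type. Again the strains did not overlap, and only the wild-type arrays lay above 5. The log2 fold change was -1.21 (adjusted p = 0.00379 from limma), and the call was lost without *dyf-1(mn335)* replicate 1 or without wild-type replicate 1, 2 or 3 (adjusted p = 0.013 to 0.0154 from limma).

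The dim probe set that rose, *srj-23*, showed the reverse picture, with 5.22, 5.34, 5.28 and 5.47 in *dyf-1(mn335)*, against 4.51, 3.90, 4.12 and 3.51 in wild-type. Every mutant array was above 5 and every wild-type array below it. The log2 fold change was 1.32 (SE 0.20, adjusted p = 0.00244 from limma). The call was lost narrowly without replicate 2 of *dyf-1(mn335)* or of wild-type (adjusted p = 0.0103 and 0.0114 from limma).

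The remaining falls were smaller and close to the threshold. *str-55* had 3.0, 3.37, 3.29 and 2.97 in *dyf-1(mn335)*, against 4.21, 3.66, 4.24 and 4.20 in wild-type, where replicate 2 lay nearest to the mutant (log2 fold change -0.92, adjusted p = 0.00613 from limma). It stayed called only without wild-type replicate 2 or wild-type replicate 4, and otherwise the adjusted p was 0.0137 to 0.0233. *str-16* had 3.58, 3.83, 3.77 and 3.71 in *dyf-1(mn335)*, against 4.17, 4.37, 4.34 and 4.45 in wild-type, which do not overlap (log2 fold change -0.61, adjusted p = 0.00874 from limma). It stayed called only without wild-type replicate 4, and without any other array its adjusted p was 0.0169 to 0.0328. The other probe set of *str-16*, with a mean log2 value of 2.54, had a log2 fold change of -0.04 and was not called (adjusted p = 0.861 from limma).

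**Figure D2:**
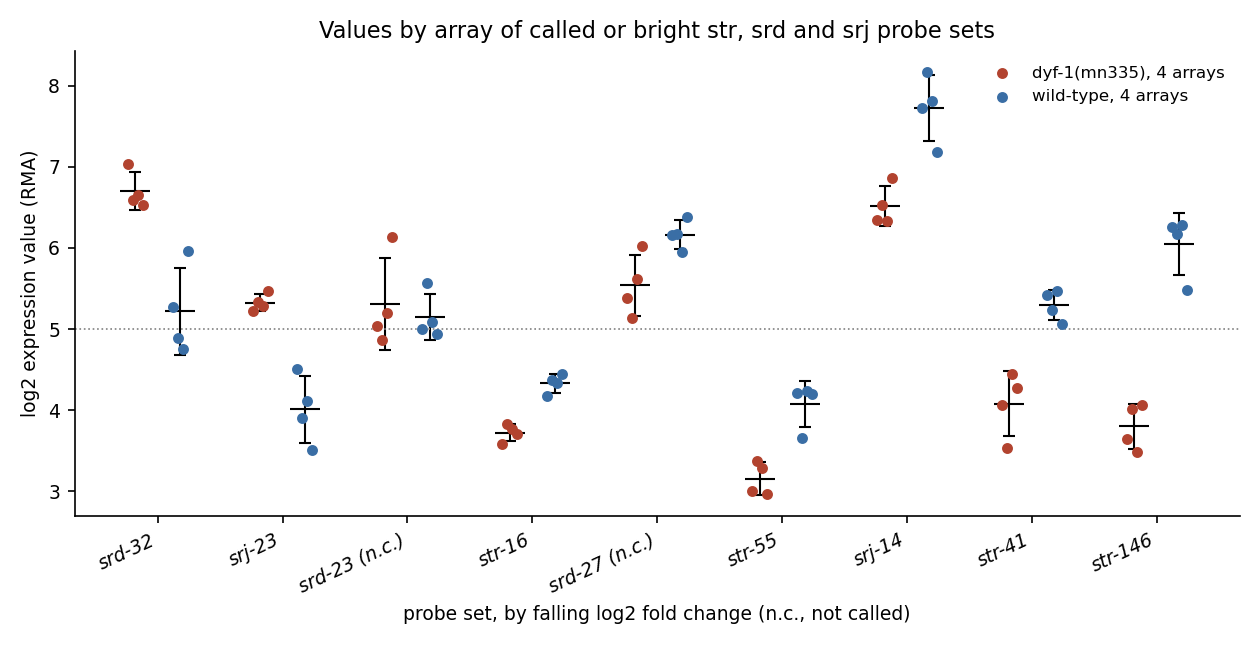
Log2 expression values of the 7 called and the 2 further bright probe sets in each array, with *dyf-1(mn335)* to the left of wild-type and bars giving the mean and SD of 4 arrays. The strains overlap for *srd-23* and *srd-27* (n.c., not called) and for no other probe set shown.

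At an adjusted p under 0.05 the count was 4 higher and 16 lower, where 13.1% of all probe sets were higher and 11.7% lower. At this looser limit *str-151* (log2 fold change 0.96) and *str-138* (0.63) joined the higher ones. The 11 that joined the lower ones ranged from *str-225* at -1.03 through *str-172* at -0.85 and *srd-53* at -0.69 to *str-200* at -0.47. In 5 probe sets all mutant arrays lay above all wild-type arrays and in 34 all lay below, against 12.6% and 11.1% of all probe sets. Leaving out wild-type replicate 4 gave 2 higher and 9 lower calls at the 0.01 threshold, all 7 included, with *srj-9*, *str-121*, *str-172* and *str-199* added to the lower ones. This is 3.85% of the receptor probe sets, where 26.2% of all probe sets were called in the same fit (13.3% higher and 12.9% lower). Leaving out *dyf-1(mn335)* replicate 4 gave 2 higher and 3 lower calls (1.75%, against 8.45% of all probe sets). Without any other array there were 0 or 1 higher and 1 or 2 lower, 0.699% to 1.05% of the receptors, against 4.28% to 5.74% of all probe sets.

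None of the receptors with a reported neuron or ligand was called, and 2 of these 6 were lower at an unadjusted p under 0.05 in limma. *str-44*, which is expressed in the AWA neurons and responds to acetate esters, had 3.21, 3.18, 3.24 and 3.35 in *dyf-1(mn335)* and 3.43, 3.62, 3.98 and 3.62 in wild-type. All mutant arrays were lower, by 0.42 on average (adjusted p = 0.0651 from limma, exact permutation p = 0.0286). *str-1*, a marker of the AWB neurons, had 2.12, 2.08, 2.03 and 2.15 in *dyf-1(mn335)* and 2.63, 2.14, 2.69 and 2.51 in wild-type, overlapping in wild-type replicate 2 (adjusted p = 0.0786 from limma). For *str-3*, a marker of the ASI neurons, and *str-217*, which acts in the ADL neurons in the response to the repellent DEET, the log2 fold changes were -0.10 and -0.13, with overlapping arrays and adjusted p-values of 0.668 and 0.527 from limma. *srd-1*, a receptor for a sex pheromone in the AWA neurons of males, had 4.13, 4.22, 4.23 and 4.56 in *dyf-1(mn335)* and 3.91, 3.87, 4.06 and 4.14 in wild-type, higher by 0.29 on the log2 scale and not called (adjusted p = 0.163 from limma). The other of these 6 is *srd-23*, given above among the bright receptors. *str-245* is not one of the 6 and is named only for its high mean. It had 4.42, 4.88, 4.70 and 4.86 in *dyf-1(mn335)* and 5.13, 5.42, 5.28 and 4.95 in wild-type, without overlap but not called (adjusted p = 0.0569 from limma).

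Across the whole set the differences were small and mostly negative. The median log2 fold change was -0.18, with quartiles of -0.30 and -0.04, and 231 of the 286 probe sets (80.8%) were below 0. The same median was -0.04 over all probe sets, of which 53.4% were below 0, and -0.07 over all dim ones, with 57.8%. The families lay close together, with medians of -0.17 for str, -0.16 for srd and -0.22 for srj. Among probe sets of like brightness, with a mean under 3, the median was -0.15 and 84.7% were below 0 among the receptors, and -0.12 and 72.0% among all 5008 probe sets. With a mean of 3 to 4, the values were -0.23 and 77.8% for the receptors and -0.05 and 54.4% for all.

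Array by array, the median log2 value of the 286 was 2.60, 2.67, 2.70 and 2.76 in *dyf-1(mn335)* and 2.85, 2.74, 2.96 and 2.82 in wild-type. The strains touched here, since wild-type replicate 2 lay below *dyf-1(mn335)* replicate 4. The median over all dim probe sets was 3.32 to 3.38 in *dyf-1(mn335)* and 3.31 to 3.39 in wild-type. Counted in single arrays, 5 to 8 of the 286 reached a log2 value of 5 in *dyf-1(mn335)* and 7 to 9 in wild-type. The size of the shift depended on the scaling between arrays. The median of the receptors was -0.33 after centring of the array medians, where that of all probe sets became -0.19, and -0.07 after cyclic loess. The gap between the receptors and all probe sets was -0.14 as deposited and -0.07 after cyclic loess. Centring shifts all probe sets of an array alike, so it cannot change this gap.

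**Figure D3:**
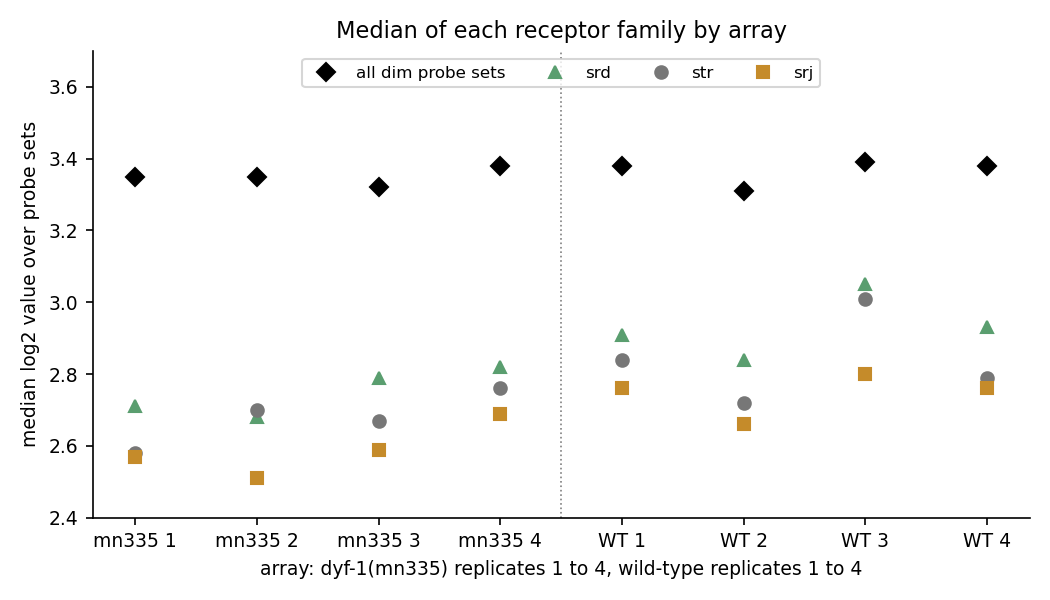
Median log2 value of the srd (triangles), str (circles) and srj (squares) probe sets and of all dim probe sets (diamonds) in each array, *dyf-1(mn335)* (mn335) left and wild-type (WT) right of the dotted line. The median over all dim probe sets stays between 3.31 and 3.39 in the 8 arrays.

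The other large chemoreceptor families are given beside these values, and the difference between families was not tested. Of the srh and sri genes, which belong to the same superfamily as str, srd and srj, 3 of 274 probe sets were called higher and 3 lower, and the median log2 fold change was -0.13. The Sra superfamily had 1 higher of 123 and a median of -0.18, and the Srg superfamily 2 higher of 311 and a median of -0.16. Together 1.27% of these 708 probe sets were called and 76.0% were below 0. Without wild-type replicate 4 they held 7 higher and 19 lower calls, and without any other array 1 to 4 higher and 3 or 4 lower. Over all probe sets the lower calls were 3.46% in the fit of all 8 arrays, 12.9% without wild-type replicate 4 and 1.11% to 2.46% without any other array.

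Receptor genes of these families are often arranged in runs. In the RefSeq gene order of assembly WBcel235, 146 of the 285 genes stood directly next to another of them and 182 next to a chemoreceptor gene of some family. The 2 annotated genes on each side of the 9 called or bright genes were then examined. *str-146* stands among *str-130*, *str-129*, *str-145* and *sdz-23*, with log2 fold changes of -0.59, -0.48, -0.95 and -0.79, none of them called by limma and all 4 lower at an unadjusted p under 0.05. Of all 29317 probe sets, 5852 were lower by that measure and 10% were called in either direction. Whether neighbouring genes changed together was not tested. Beside *str-41* the genes F18E3.11 and F18E3.12 fell, with log2 fold changes of -3.50 and -2.69 (adjusted p = 0.00404 and 0.00048 from limma). Only F18E3.12 stayed called without each array in turn, since F18E3.11 reached adjusted p-values of 0.0134 to 0.0167 when replicate 1, 2 or 3 of either strain was left out. On its other side R13D7.2 and the receptor gene *srt-6* had -0.57 and -0.08 and were not called.

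Next to *srd-32*, the receptor gene *srd-33* had a log2 fold change of 0.24 and was not called, while *nex-4*, an annexin gene 2 places away, rose by 1.98 (adjusted p = 0.00203 from limma). *srj-23* lies between *cnc-2*, a gene for an antimicrobial peptide, with -2.10 and *chil-14* with -0.79, and neither passed the threshold (adjusted p = 0.0139 and 0.0101 from limma). Of the next genes out, *cnc-3* had 0.78 and *hacd-1* had -1.28, and neither was called (adjusted p = 0.0154 and 0.0103 from limma). Near *str-55* the receptor gene *srw-48* fell by 0.70 (adjusted p = 0.00613 from limma), a call that held only without wild-type replicate 4 and not without any other array (adjusted p = 0.0127 to 0.0241), and around *srj-14*, *str-16*, *srd-23* and *srd-27* no neighbour with a probe set of its own was called.

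**Figure D4:**
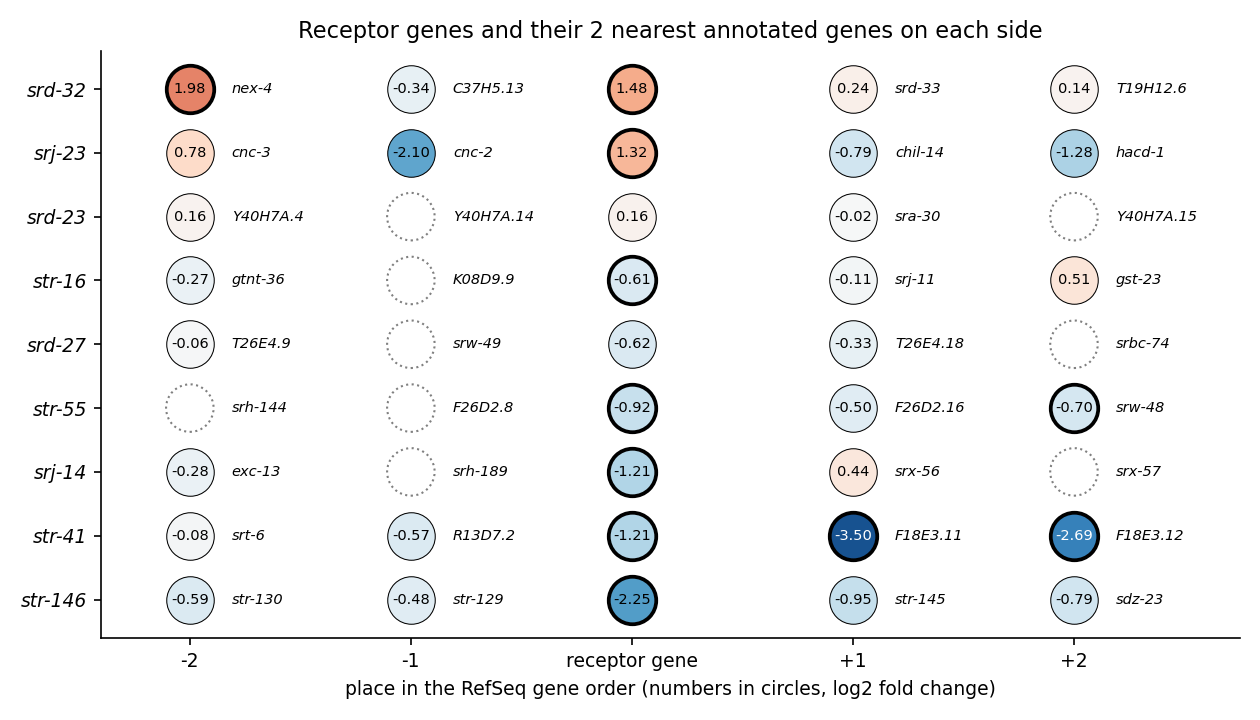
Log2 fold changes, *dyf-1(mn335)* over wild-type, of the 9 called or bright receptor genes (centre) and of the 2 annotated genes before and after each in gene order, with the value in each circle, red for higher and blue for lower. Heavy outlines mark an adjusted p under 0.01, and dotted circles are genes without a probe set of their own.

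The genes that act with chemoreceptors rose wherever they were called. Of 71 such genes, with the receptor gene *odr-10* counted among them, 68 were measured. In limma 23 rose and none fell, and the unadjusted p was under 0.05 for 43 higher and 1 lower gene. Their median log2 fold change was 0.79. Over the whole array 6.56% of probe sets were called higher, and among bright ones 1349 of 15520. By the unadjusted p, 5574 of all 29317 were higher. Of the 68 genes, 45 were bright. Among 18 G protein subunits listed for sensory neurons, 6 rose, with a median of 0.57. The brightest of the 18, *gpa-16* and *gpb-1*, had mean log2 values of 10.57 and 9.95 and were not called. In whole worms the tissue that gave the transcripts of these lists cannot be told. *odr-3*, a G protein alpha subunit used in olfaction, had 6.97, 7.05, 6.91 and 7.66 in *dyf-1(mn335)*, against 4.49, 5.30, 5.14 and 5.38 in wild-type, far apart in all arrays (log2 fold change 2.07, adjusted p = 0.000669 from limma). *gpa-7* rose by 1.27.

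In the cGMP branch 3 of 11 rose, with a median of 0.61. They included *tax-2*, a subunit of the cGMP-gated channel, which rose by 1.18, and the guanylyl cyclase gene *daf-11*, which rose by 1.13 and was no longer called without *dyf-1(mn335)* replicate 1 or 2 or wild-type replicate 1 or 3 (adjusted p up to 0.0149 from limma). Of the 4 TRPV channel genes measured, *ocr-3* rose by 1.24. In receptor desensitisation 3 of 7 rose, with a median of 1.22, among them *grk-2*, a kinase of G protein-coupled receptors, which rose by 1.41, and *tbx-2*, a transcription factor needed for olfactory adaptation, which rose by 1.29.

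For delivery of receptors to the cilium, 5 of 11 rose, with a median of 0.59. *tub-1*, the Tubby homologue, rose by 1.79, and *che-3*, the heavy chain of the cilium's retrograde motor, by 1.51. Of the regulators of chemoreceptor transcription, 5 of 17 rose, with a median of 1.20. *lim-4*, a homeobox gene that sets AWB identity, rose by 1.85, and *tir-1*, a signalling adaptor in the choice of AWC receptor, by 1.07. *tbx-2*, *lim-4* and *tir-1* were each no longer called when replicate 1, 2 or 3 of either strain was left out (adjusted p up to 0.0152, 0.0256 and 0.0298 from limma).

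The diacetyl receptor gene *odr-10* of the AWA neurons, itself a chemoreceptor gene, was the lower one of these 68 at an unadjusted p under 0.05. It had 4.15, 4.36, 4.31 and 4.36 in *dyf-1(mn335)* and 5.43, 5.75, 5.62 and 4.27 in wild-type. Wild-type replicate 4 lay within the mutant range and the other wild-type arrays more than 1 log2 unit above it. *odr-10* was not called over all 8 arrays (log2 fold change -0.97, adjusted p = 0.0405 from limma, exact permutation p = 0.114) and was called without wild-type replicate 4 (-1.31, adjusted p = 0.000175 from limma). The count of 23 became 39 without that array, in a fit that called 13.3% of all probe sets higher instead of 6.56%. It was 18 without *dyf-1(mn335)* replicate 4, with 5.99% of all probe sets called higher. When replicate 1, 2 or 3 of either strain was left out it was 8 to 11, with 3.18% to 4.06% of all. After centring it was 15, with 5.17% of all.

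**Figure D5:**
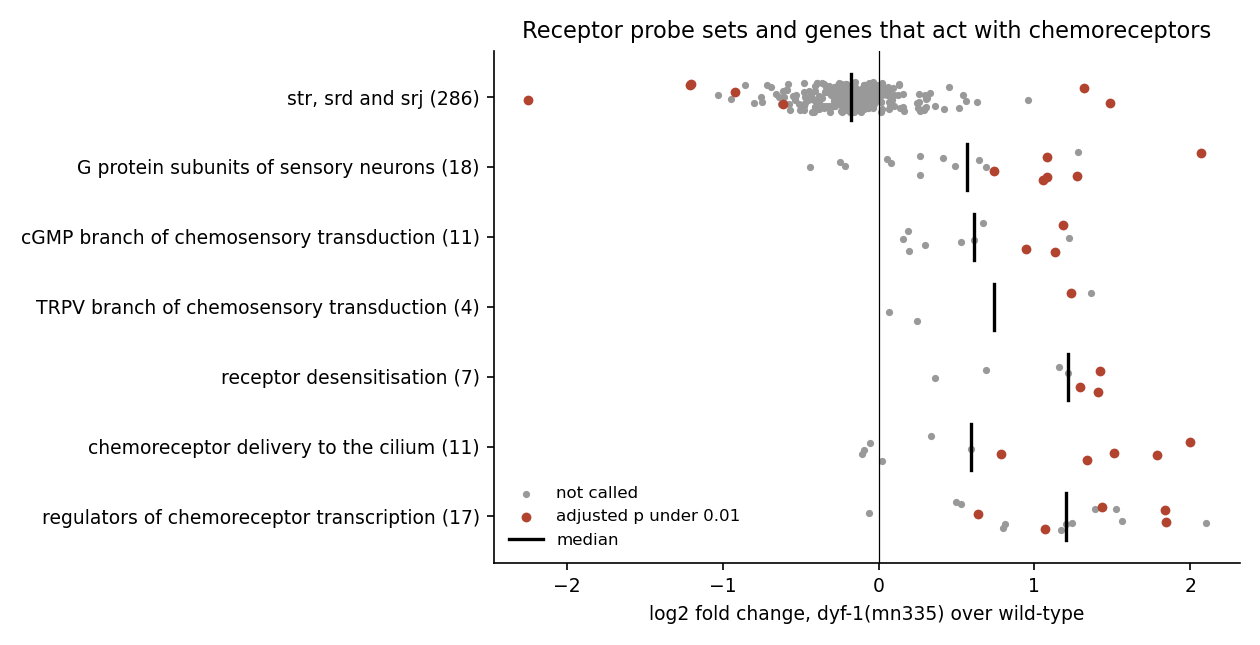
Log2 fold changes, *dyf-1(mn335)* over wild-type, of the 286 receptor probe sets and of the genes of 6 lists of proteins that act with chemoreceptors, 1 point per probe set or gene, red where the adjusted p was under 0.01, with a bar at each median. The medians of the 6 lists lie between 0.57 and 1.22 and that of the receptors at -0.18.

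Markers of the cells that could carry these transcripts moved as well, and their part in the receptor values was not tested. Of 21 sensory neuron markers, 12 of which are also among the 71 genes above, 5 rose and none fell (1 lower at an unadjusted p under 0.05 in limma), and of 15 general neuron markers 8 rose. On the log2 scale the sensory neuron markers summed to 10.98 to 11.30 in *dyf-1(mn335)* and 10.46 to 11.08 in wild-type, which overlap. The summed level of the general neuron markers, on the log2 scale, was 13.70 to 13.79 in *dyf-1(mn335)* and 12.88 to 13.33 in wild-type. Of 7 amphid glia markers, the cells that ensheath these endings, 4 rose. The worms were hermaphrodites, and none of the 7 markers of male-specific neurons was bright. Only *cwp-4* was called, higher by 0.87 and not called without replicate 2 or 3 of either strain (adjusted p = 0.0115 to 0.0155 from limma). At an unadjusted p under 0.05 in limma 2 of the 7 were higher and 1 lower, and their median log2 fold change was 0.06. Their summed levels were 6.73 to 6.86 in *dyf-1(mn335)* and 6.55 to 6.64 in wild-type. Sperm markers summed to 8.01 to 8.22 in *dyf-1(mn335)* and 8.67 to 9.03 in wild-type. Of the 12 sperm markers 1 was called, lower, and 6 were lower at an unadjusted p under 0.05 in limma. None of 21 female germline markers was called by limma (4 lower at an unadjusted p under 0.05). Outside the nervous system and the germline, pharyngeal muscle markers rose in 3 of 7 cases, with a median log2 fold change of 1.26 and summed levels of 12.71 to 12.95 in *dyf-1(mn335)* and 11.41 to 12.24 in wild-type, without overlap. That median lies beside the 0.79 of the genes that act with chemoreceptors, and the part of these markers in either was not tested. None of 9 body wall muscle markers was called by limma, with 5 higher and 1 lower where the unadjusted p was under 0.05 and summed levels of 13.53 to 13.85 in *dyf-1(mn335)* and 13.23 to 13.75 in wild-type. Intestine markers had 1 of 12 called higher and 2 lower, and hypodermis markers 1 of 8 in each direction.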

How the data were processed

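The authors corrected the background of the Affymetrix arrays, normalised them by quantiles and summarised their probes by RMA (package oligo), and the deposited log2 values, 1 per probe set and array, were used as they stand. Quantile normalisation gives all 8 arrays nearly the same distribution, so that a shift of all transcripts cannot be seen. Probe sets were named from the platform annotation (25546 with 1 gene, 646 with several), and probe sets of several genes were used for no gene. RefSeq was used for names and gene order only.

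The strains were compared by limma 3.58.1 (lmFit, then eBayes with its defaults, R 4.3.3) in a two-sided test with no covariate over all 29317 probe sets. The number of arrays limits the precision, and the median standard error of a receptor's log2 fold change was 0.16. Single values were also compared with exact permutation tests in scipy 1.17.1, and figures drawn with matplotlib 3.10.9. On simulated data, 18 of 100 probe sets with a log2 change of 1 and 82 of 100 with a change of 2 were recovered. Only these were changed there, with independent noise for each value, whereas 2939 of 29317 were called in the data. The shares recovered therefore do not give the power of this comparison.

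The receptors named are called bright ones, up to 4 called dim ones per direction, the 5 with the highest mean, *srd-32* and *srd-60*, which the study silenced, and 6 with a reported neuron or ligand. Of the lists, up to 2 called genes per direction and *odr-10* are named, and the probe set with the highest mean stands for a gene that has several. *srd-60* had only probe sets shared with another gene. The probe sets between both thresholds, those added without wild-type replicate 4, the second probe set of *str-16*, the neighbours and *cwp-4* lie outside this rule and were chosen with their values in view. The receptors and all lists were chosen with earlier results of these data known.

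Alternatives were a brightness filter, an intensity trend with robust spread, array weights, centring, cyclic loess, the replicate number as a block, an adjusted p under 0.05, probe sets of several receptor genes, and leaving out each array or both replicate 4 arrays.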

Additional observations from a re-analysis of the deposited data

Results flagged for a closer look

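In groups of 4 arrays, a value far from the other 3 was looked for with Dixon's criterion in 54 groups, and chance marks about 1 group in 20. 6 values stood out. Among the receptors, *str-146* had 5.48 in wild-type replicate 4, where the other wild-type arrays had 6.17 to 6.28, and *str-55* had 3.66 in wild-type replicate 2, with 4.20 to 4.24 in the others. Both are the wild-type values nearest to *dyf-1(mn335)*. Among the genes that act with receptors, *daf-11* had 4.18 in *dyf-1(mn335)* replicate 3, against 4.83 to 4.86 in the rest of its group. *grk-2* had 9.52 in *dyf-1(mn335)* replicate 4, with 9.20 to 9.22 in the others, and 8.37 in wild-type replicate 4, with 7.68 to 7.76 in the others. *tir-1* had 8.20 in wild-type replicate 4 and 7.37 to 7.49 in the other wild-type arrays. Of the 6 values, 3 belong to wild-type replicate 4, and all 3 lie on the side of *dyf-1(mn335)*.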

How the results depend on the processing

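The main counts were 2 higher and 5 lower for the receptors, 23 and 0 for the genes that act with them and 6 and 3 for the other families. The filter on dim probe sets gave 1 and 1, 15 higher, and 1 and 1. Array weights gave 20 lower, 42 and 1, and 11 and 44, in a fit that called 37.1% of all probe sets instead of 10%. Centring gave 15 higher for the genes that act with receptors and 8 lower for the other families, with 10.8% of all probe sets called. Leaving out both replicate 4 arrays gave 12 lower, 43 and 1, and 23 lower, with 33.3% of all probe sets called. An adjusted p under 0.05 gave 4 and 16 for the receptors, 1 lower for the genes that act with them, and 11 and 25 for the other families. Counting probe sets of several receptor genes, identical ones once, gave 4 higher receptors. Leaving out 1 array at a time gave 0 to 2 higher and 1 to 9 lower receptors, 8 to 39 higher and 0 to 1 lower genes that act with them, and 1 to 7 higher and 3 to 19 lower of the other families. In these fits 4.28% to 26.2% of all probe sets were called. The median log2 fold change of the receptors was -0.33 after centring and -0.072 after cyclic loess. *srd-23*, not called in any setting, was at -0.11 with array weights, between -0.12 (without *dyf-1(mn335)* replicate 4) and 0.31 with 1 array left out, and -0.19 without both replicate 4 arrays. With the replicate block, 0 receptors were called in either direction (adjusted p of 0.0103 for *str-146* and higher for the others), 4 genes that act with them were higher, and the other families had 0 higher and 1 lower, with 1.07% of all probe sets called. The labels do not say whether same-numbered arrays were handled together. Their deviations from the group means had correlations of -0.57 to 0.01, which cannot show how the arrays were handled. Over 27 single genes and all settings, 336 of 417 values kept their direction and side of the threshold, 71 lost the call, 7 gained it and 3, those of *srd-23*, changed sign.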

Other observations

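Some receptor genes are measured by probe sets that the annotation assigns to 2 genes. Apart from the setting that added them, these are in none of the counts above. Of these genes, *str-257* also has a probe set of its own. There are 17 such probe sets with a str, srd or srj gene, 7 of which repeat the values of another in all arrays, so that 10 distinct ones remain. Of the 10, 8 had a log2 fold change above 0, and 3 were called, all higher, where 6.56% of all probe sets were called higher. The probe set shared by *srd-60* and *srd-73* had 5.75, 5.42, 5.55 and 5.53 in *dyf-1(mn335)*, against 3.14, 3.37, 3.67 and 3.91 in wild-type (log2 fold change 2.04, standard error 0.18, adjusted p = 0.000264 from limma). Every mutant array was more than 1 log2 unit above every wild-type array. *srd-60* is the other srd gene that the study silenced, and which of the 2 genes gave the signal cannot be told apart. The one shared by *srd-61* and *srd-75* had 5.78, 6.14, 6.13 and 5.80 in *dyf-1(mn335)*, against 4.55, 4.89, 4.73 and 4.13 in wild-type (log2 fold change 1.39, adjusted p = 0.0013 from limma). The one shared by *str-258* and Y19D10A.2 had 4.94, 4.73, 4.82 and 5.15 in *dyf-1(mn335)*, against 3.51, 3.73, 3.65 and 3.68 in wild-type (log2 fold change 1.27, adjusted p = 0.00048 from limma). In all 3 the strains did not overlap, and each stayed called without each of the 8 arrays in turn. These probe sets were examined after the values of the others had been seen.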
